A study of Mus musculus with 16 samples.

Results

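The 10 genes described here are grouped under the secretory granules that neutrophils make while they mature: Ltf, Camp, Ngp, Lcn2, Mmp8, Mmp9, Fcnb, Itgb2l, Pglyrp1 and Retnlg. They were chosen by name as genes of the specific (secondary) and gelatinase (tertiary) granules, and each is represented by its brightest probe. All 10 were found among the 33269 gene names of the array. Their RNA was measured on 16 one-colour arrays of 4 groups with 4 arrays each: inflammatory cells after ADSC, inflammatory cells after PBS, whole liver after ADSC and whole liver after PBS. All samples came from female C57Bl/6 mice on an atherogenic high-fat diet for 40 weeks, a model of cirrhosis, so no group stands for a healthy liver. ADSC are stem cells grown from the inguinal fat of GFP-transgenic mice. Each treated mouse received 100000 of them into the subcapsular spleen on each of 2 occasions, and sampling followed 2 weeks after the second. PBS is phosphate-buffered saline. The inflammatory cells were a fraction taken from the liver. Its isolation is not settled, because the extraction text in the labels speaks of tumor-infiltrating cells and of blood. The labels do not say that each array stands for a separate animal, so p-values measure the spread between these samples, which may be technical. Arrays carry the numbers 7 to 10 for ADSC and 11 to 14 for PBS.

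Neutrophils build their granules in sequence in the bone marrow. Azurophil granules with myeloperoxidase and elastase are filled at the promyelocyte stage, specific granules with lactoferrin at the myelocyte stage, and gelatinase granules later, and the RNA of most granule proteins is scarce again in the mature blood neutrophil. Transcription factors of the C/EBP family, C/EBP epsilon above all, drive the specific granule genes, and mice without that factor lack these proteins.

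The members have different jobs. Ltf encodes lactoferrin, which binds iron, and Lcn2 encodes lipocalin 2, which captures the iron carriers of bacteria and is also an acute phase product of hepatocytes. Camp encodes cathelicidin, an antimicrobial peptide, and Ngp encodes neutrophilic granule protein, a mouse protein related to the cystatins. Mmp8, neutrophil collagenase, and Mmp9, gelatinase B, cut collagens. Fcnb (ficolin B) and Pglyrp1 (peptidoglycan recognition protein) bind microbial surfaces. Itgb2l is a relative of the beta 2 integrins found on mouse neutrophils, and Retnlg (resistin-like gamma) is a small secreted protein.

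Promoters are shown because the members moved together and are thought to share regulators of the C/EBP family. The 250 bases before the annotated start were taken from RefSeq (GRCm38.p6) for 9 of the 10 members, all but Mmp9. The 4 motifs searched, on both strands, were chosen with results of these data known. The first was a C/EBP-like motif, with the letters TTGCNNAA. The second was an ETS core, GGAAGT, and another the TATA box, TATAAA. An NF-kB-like motif, GGGA and then CC after any 4 letters, was the last. The C/EBP-like letters were found in 6 of 9 members (Ltf, Ngp, Lcn2, Mmp8, Fcnb and Retnlg), against 9.56% of the 32851 promoters in the table. The ETS core was found in 3 of 9 members, against 19.7% of all promoters, the NF-kB-like motif in 1 of 9, against 17.6%, and the TATA box in 0 of 9, against 12.4%. These are matches of letters and say nothing of binding. The match began 75 bases before the start in Ltf, 138 and 11 bases in Ngp, 216 bases in Lcn2 and 19 bases in Mmp8, and Camp is given as a member without one. Capitals mark the C/EBP-like letters in the following 5 promoters, written 5′ to 3′ on the gene's strand.

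Ltf, chr9:111019042-111019291, plus strand: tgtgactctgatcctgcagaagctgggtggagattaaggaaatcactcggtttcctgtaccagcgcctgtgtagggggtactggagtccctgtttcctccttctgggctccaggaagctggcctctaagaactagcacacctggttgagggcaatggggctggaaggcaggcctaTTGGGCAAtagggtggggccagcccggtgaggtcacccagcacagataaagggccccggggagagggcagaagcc

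Ngp, chr9:110419558-110419807, plus strand: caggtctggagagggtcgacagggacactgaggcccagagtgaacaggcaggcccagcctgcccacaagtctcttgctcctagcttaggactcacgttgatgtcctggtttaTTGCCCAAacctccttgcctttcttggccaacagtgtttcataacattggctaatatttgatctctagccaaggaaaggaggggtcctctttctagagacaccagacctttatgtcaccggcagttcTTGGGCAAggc

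Lcn2, chr2:32387740-32387989, minus strand: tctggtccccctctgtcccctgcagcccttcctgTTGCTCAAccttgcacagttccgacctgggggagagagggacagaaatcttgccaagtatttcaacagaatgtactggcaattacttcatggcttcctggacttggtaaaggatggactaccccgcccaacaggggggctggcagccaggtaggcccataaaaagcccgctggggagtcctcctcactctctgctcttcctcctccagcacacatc

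Mmp8, chr9:7558179-7558428, plus strand: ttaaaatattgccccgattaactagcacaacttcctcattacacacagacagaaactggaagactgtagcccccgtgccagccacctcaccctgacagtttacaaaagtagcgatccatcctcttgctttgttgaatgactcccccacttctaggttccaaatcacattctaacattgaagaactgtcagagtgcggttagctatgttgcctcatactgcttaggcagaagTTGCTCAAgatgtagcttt

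Camp, chr9:109849457-109849706, minus strand: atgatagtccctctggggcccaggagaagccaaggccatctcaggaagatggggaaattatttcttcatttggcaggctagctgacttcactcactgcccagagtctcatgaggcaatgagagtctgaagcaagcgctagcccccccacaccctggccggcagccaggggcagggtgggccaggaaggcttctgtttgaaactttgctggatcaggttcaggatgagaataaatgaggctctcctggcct

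Levels are log2 signals relative to the array's 75th percentile, and a level of one gene is not set against that of another. Between 51.6% and 66.3% of the spots of an array were well above background, 0 spots were saturated, and the 75th percentile of the signal lay between 123.8 and 551.9. Genes detected above background on 4 or more of the fitted arrays were tested, and a call is an adjusted p under 0.05 over all genes tested. The labelled sample types were set against their markers. The 7 measured hepatocyte genes were well above background on every liver array, and 6 or 7 of them on each inflammatory cell array. Of 10 measured genes of calprotectin and mature neutrophil receptors, 8 to 10 were so on inflammatory cell arrays and 6 to 10 on livers. Detection therefore hardly separates the sample types. The mean hepatocyte level was 7.24 and 7.14 in ADSC and PBS livers, against 2.24 and 1.31 in ADSC and PBS cells. The calprotectin and receptor mean was -2.34 and -0.07 in those livers, against 1.06 and 3.13 in those cells. Liver PBS 12, at 1.23, lay among the ADSC cells. Exocrine pancreas transcripts stood apart on 3 inflammatory cell arrays. The mean level of 10 such genes was 8.64 on ADSC 10, and 6.52 and 8.50 on PBS 11 and PBS 13, against -1.52 to 2.52 on the other 5. The treatment comparison in these cells is therefore given with and without those 3 arrays. The other 5 were not free of these transcripts. On every inflammatory cell array 9 or 10 of the 10 genes were well above background, against 2 on every liver array.

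The first comparison asks how the granule genes differed in hepatic inflammatory cells after ADSC. Of the 10 members, 9 fell and 0 rose (limma, adjusted p under 0.05), against 1.07% of the 20165 genes tested that fell and 0.134% that rose. The median log2 fold change of the 10 was -3.93, against 0.03 over all genes. Every ADSC array lay below every PBS array for 10 of 10 members, a pattern that 6.69% of all genes showed, with 3.64% showing the opposite one. In bulk samples such as these, fewer cells of a type and less RNA per cell cannot be told apart.

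**Figure D1:**
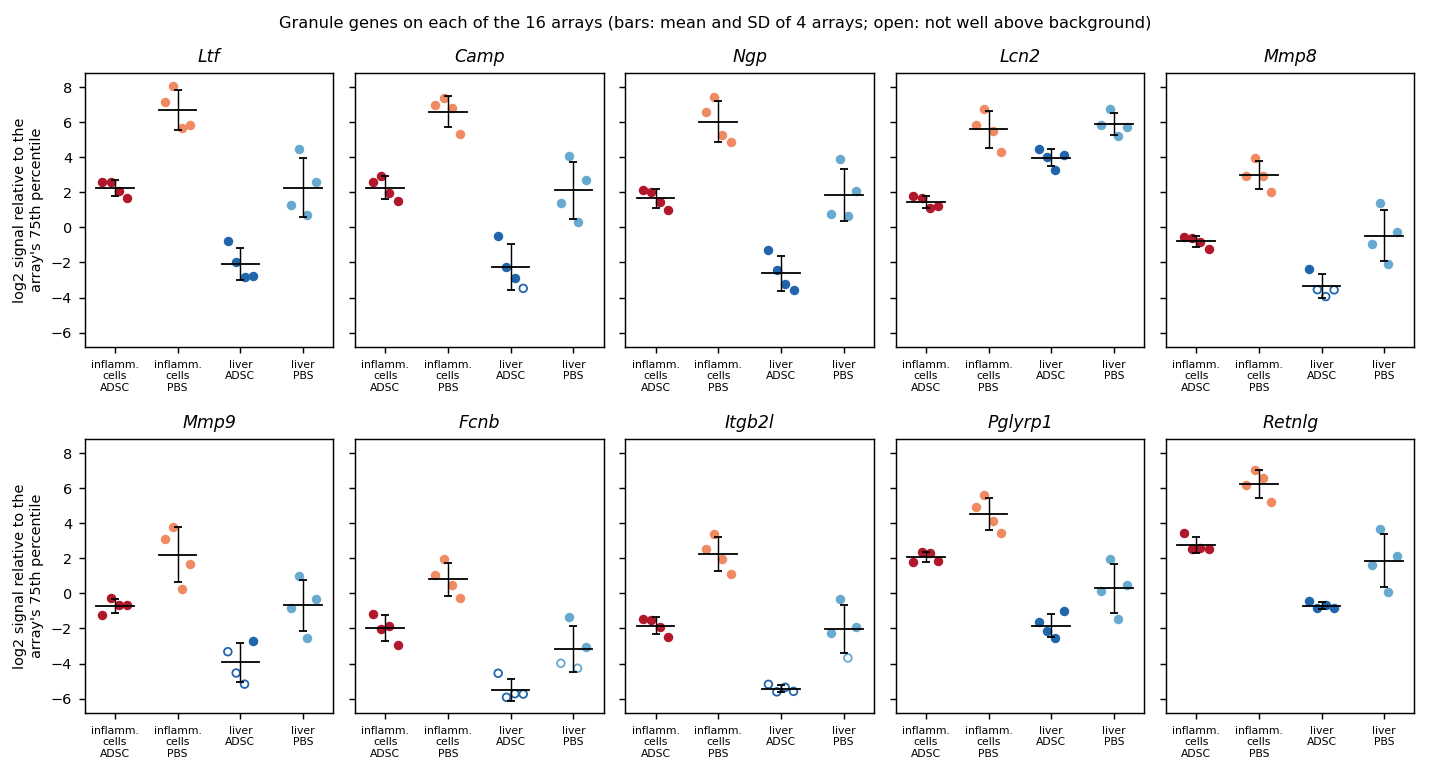
Log2 signal of each granule gene relative to the array's 75th percentile (vertical axis) on the 4 arrays of each group (horizontal axis), with the mean and SD; open points were not well above background. In inflammatory cells all 10 genes lie lower on the 4 ADSC arrays than on the 4 PBS arrays, and in liver Lcn2 alone is near its level in inflammatory cells after PBS.

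The antimicrobial and iron-binding products come first. Ltf was at 2.61, 2.60, 2.06 and 1.69 in ADSC cells (arrays 7 to 10), against 7.13, 8.09, 5.68 and 5.83 in PBS cells (arrays 11 to 14). The highest ADSC value, on array 7, lay under the lowest PBS value, on array 13. Its log2 fold change was -4.44 ± 0.49 (SE, adjusted p = 0.00268), 21.7-fold lower, and a dimmer probe of Ltf gave -4.45. Camp was at 2.61, 2.96, 1.99 and 1.51 in ADSC cells, against 6.96, 7.36, 6.79 and 5.31 in PBS cells. The groups were again apart, with PBS 14 the lowest of its group, and the change was -4.34 ± 0.45 (SE, adjusted p = 0.00247). Ngp was at 2.16, 2.04, 1.47 and 0.98 in ADSC cells, against 6.58, 7.44, 5.25 and 4.87 in PBS cells. It fell by 4.37 ± 0.52 on the log2 scale (SE, adjusted p = 0.00399). Lcn2 was at 1.82, 1.71, 1.09 and 1.20 in ADSC cells, against 5.82, 6.78, 5.47 and 4.28 in PBS cells. It fell by 4.14 ± 0.45 (SE, adjusted p = 0.00268), with PBS 12 the highest of the PBS arrays, as for Ltf, Camp and Ngp.

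The matrix proteases differed in how sure the call was. Mmp8 was at -0.53, -0.59, -0.83 and -1.26 in ADSC cells, against 2.96, 3.98, 2.95 and 2.01 in PBS cells, a log2 fold change of -3.77 ± 0.37 (SE, adjusted p = 0.00247). Mmp9 was at -1.24, -0.28, -0.69 and -0.64 in ADSC cells, against 3.11, 3.76, 0.24 and 1.68 in PBS cells. Its groups did not overlap, but PBS 13 was the lowest of its group, and Mmp9 missed the threshold at -2.91 ± 0.63 (SE, adjusted p = 0.057). Without PBS 13 it passed at -3.56 (adjusted p = 0.0226). A dimmer Mmp9 probe, printed 10 times on the array, gave -3.05.

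The microbe-binding and surface proteins Fcnb, Itgb2l and Pglyrp1 fell, as did the secreted Retnlg. Fcnb, ficolin B, was at -1.15, -2.02, -1.86 and -2.93 in ADSC cells, against 1.05, 1.97, 0.46 and -0.26 in PBS cells. Its change was -2.79 ± 0.48 (SE, adjusted p = 0.0218). Itgb2l, the integrin relative, had -1.44, -1.54, -1.91 and -2.48 in ADSC cells, against 2.55, 3.40, 1.97 and 1.097 in PBS cells, and fell by 4.09 ± 0.44 (SE, adjusted p = 0.00268). Pglyrp1 was at 1.80, 2.38, 2.29 and 1.82 in ADSC cells, against 4.92, 5.62, 4.12 and 3.47 in PBS cells. It had the smallest change of the 10, -2.46 ± 0.41 (SE, adjusted p = 0.0194). Retnlg was at 3.45, 2.53, 2.61 and 2.52 in ADSC cells, against 6.20, 7.06, 6.56 and 5.19 in PBS cells, and fell by 3.47 ± 0.38 (SE, adjusted p = 0.00268). The 95% intervals ran from -5.52 to -3.36 for Ltf and from -3.36 to -1.55 for Pglyrp1, the genes with the largest and the smallest change.

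**Figure D2:**
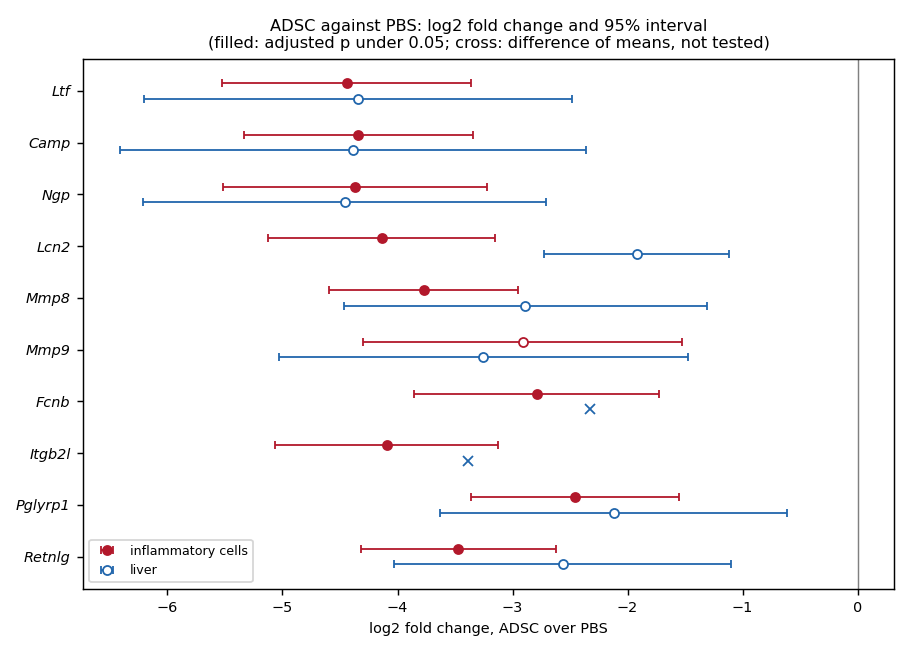
Log2 fold change of each granule gene, ADSC over PBS (horizontal axis), with its 95% interval, in inflammatory cells (red) and liver (blue); filled points passed at an adjusted p under 0.05, and crosses are differences of means that were not tested. In inflammatory cells 9 of 10 intervals belong to called genes, with estimates between -4.44 and -2.46, and in liver 0 of 8 tested genes passed.

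The calls were lost in some fits with fewer arrays or more terms, while the estimates stayed below 0. Without the 3 arrays rich in pancreas transcripts 0 of 10 members passed (adjusted p = 0.137 for each), and 0 of 18769 genes did, while all 10 had an unadjusted p under 0.05 and the median was -3.73. With slide as a fixed term 0 of 10 passed (adjusted p = 0.0511 for Ltf and 0.0774, the largest, for Fcnb), again with all 10 under 0.05 unadjusted and a median of -4.29. How many of all genes had an unadjusted p under 0.05 in these fits is not given here. In the main fit, with all arrays and no added term, 3719 of 20165 did. Within the slides and scan days that held both treatments all 10 members were lower in ADSC cells. The medians were -3.83 on slide 2 (ADSC 8 against PBS 11) and -4.80 on slide 3 (ADSC 7 against PBS 12). Scan day 2 held those same arrays, with a median of -4.29, and the fit with slide as a fixed term rests on them too. The other slides held ADSC or PBS cells alone, so these values are not separate checks. On scan day 3, with ADSC 9 and 10 against PBS 13, the median was -3.99 and Mmp9 was at -0.90. Fcnb lost its call without PBS 11, PBS 12, ADSC 8, ADSC 9 or ADSC 10, and Pglyrp1 without ADSC 9 or ADSC 10.

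Markers of other cell types were read on the same arrays. Of 11 measured monocyte and macrophage genes 2 fell and 0 rose (median -1.14): Cd14, the endotoxin co-receptor, at -1.99 and Fcgr1, a high-affinity IgG receptor, at -1.53. Clec4f at -3.55 and Vsig4 at -2.29 had larger estimates but did not pass. In all, 9 of the 11 estimates were below 0, and Timd4 and Cd163 were above it at 0.25 and 0.67. For these 11 genes the mean level was 0.49 to 1.47 on ADSC arrays and 1.83 to 2.45 on PBS arrays. None of 7 hepatocyte genes and none of 5 B cell genes passed, with medians of 0.69 and 1.00. The hepatocyte mean was 1.65 to 3.23 in ADSC cells and 0.51 to 1.95 in PBS cells, and the B cell mean 2.40 to 3.13 in ADSC cells and 0.95 to 2.10 in PBS cells. The 4 T cell genes had a median of 0.01 and the 5 erythroid genes of 0.78, and 0 passed. Of 7 cell cycle genes 1 fell, Cdk1, at -1.86 (median -0.73), and their mean was -0.75 to -0.52 in ADSC cells and 0.08 to 1.05 in PBS cells. The 10 exocrine pancreas genes had a median of -2.86 and 0 passed. Without the 3 arrays rich in pancreas transcripts 0 of these genes passed, with medians of -1.34 for monocyte and macrophage genes, 0.87 for hepatocyte, 1.33 for B cell and -0.96 for cell cycle genes. The part of these lists in the fall of the granule genes was not tested.

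In whole liver the question was the same. Of 8 tested members 0 passed, as did 0% of the 17321 genes tested (806 had an unadjusted p under 0.05), while 8 of 8 had an unadjusted p under 0.05. The median log2 fold change was -3.07, against 0.04 over all genes, -2.12 with normexp background correction and -2.04 with quantile normalization added. It lay between the values of Mmp8 and Mmp9, which were well above background on 1 of 4 ADSC livers and reached the filter through the 4 PBS livers. With arrays not well above background counted at no less than their lowest detected signal, a setting chosen after seeing the data and without a test, it was -2.67. For 9 of 10 members every ADSC array lay below every PBS array, all but Pglyrp1. They include Fcnb and Itgb2l, which were not tested and were well above background on 0 of 4 ADSC livers. Among the genes tested, a set without those 2, 1.21% lay wholly below and 1.67% wholly above. Ltf was at -0.80, -1.99, -2.81 and -2.75 in ADSC livers (arrays 7 to 10), against 1.28, 4.46, 0.68 and 2.62 in PBS livers (arrays 11 to 14). Its log2 fold change was -4.35 ± 0.81 (SE, adjusted p = 0.559). The spread among PBS livers, 1.67 (SD, n = 4), was larger than that among PBS cells, 1.14 (SD, n = 4).

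Camp and Ngp had liver estimates close in size to that of Ltf. Camp was at -0.47, -2.27, -2.87 and -3.48 in ADSC livers, against 1.38, 4.09, 0.29 and 2.70 in PBS livers, and its change was -4.38 ± 0.89 (SE, adjusted p = 0.581). Ngp was at -1.28, -2.41, -3.23 and -3.54 in ADSC livers, against 0.78, 3.88, 0.66 and 2.06 in PBS livers, a change of -4.46 ± 0.77 (SE, adjusted p = 0.512). For each of the 3 genes ADSC 7 was the highest treated liver and PBS 13 the lowest control. Lcn2 had a smaller difference: it was at 4.45, 4.03, 3.28 and 4.12 in ADSC livers, against 5.82, 6.78, 5.24 and 5.73 in PBS livers. That gave -1.92 ± 0.35 (SE, adjusted p = 0.559).

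Among the rest, the estimates in liver were -2.89 ± 0.69 for Mmp8, -3.25 ± 0.78 for Mmp9, -2.12 ± 0.66 for Pglyrp1 and -2.56 ± 0.64 for Retnlg (SE, adjusted p = 0.801, 0.801, 0.997 and 0.801). Mmp8 was at -2.37, -3.55, -3.94 and -3.56 in ADSC livers, against -0.94, 1.42, -2.10 and -0.25 in PBS livers. The groups were narrowly apart, with ADSC 7 next to PBS 13. Mmp9 was at -3.33, -4.54, -5.18 and -2.72 in ADSC livers, against -0.85, 0.97, -2.54 and -0.33 in PBS livers, where ADSC 10 came next to PBS 13. Pglyrp1 was at -1.63, -2.15, -2.54 and -1.01 in ADSC livers, against 0.16, 1.96, -1.46 and 0.47 in PBS livers, and its groups overlapped because ADSC 10 lay above PBS 13. Retnlg was tightly grouped in ADSC livers, -0.70 ± 0.19, and widely spread in PBS livers, 1.87 ± 1.49 (SD, n = 4 each). Mmp8 and Mmp9 were each well above background on 1 of 4 ADSC livers and on 4 of 4 PBS livers, and at the lowest detected signal their differences were -2.75 and -2.59. Fcnb and Itgb2l were well above background on 0 of 4 ADSC livers, and on 2 and 3 of 4 PBS livers, too few to be tested. Against the lowest detectable signal, Fcnb was at least 1.31-fold lower in ADSC livers and Itgb2l at least 2.84-fold lower. In these bounds the PBS mean includes arrays on which the probe was not well above background.

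The liver differences moved with slide and scan day. Slide 2 and scan day 2 were the only ones with both treatments. On slide 2, ADSC 7 lay below PBS 13 for all 10 members with a median difference of -0.77 and a range of -1.94 to -0.17. On scan day 2, ADSC 7 and ADSC 9 lay below PBS 13 for all 10 with a median of -1.48. With slide as a fixed term the median of the 8 tested members was -0.77, with scan day as a fixed term it was -1.54, and 0 of 8 had an unadjusted p under 0.05 in either fit. PBS 13 had the lowest level of all PBS livers for 10 of 10 members, so these values rest on that array. Without PBS 12, the highest PBS liver for 10 of 10 members, the median was -2.48. PBS 12 also had the highest 75th percentile of the signal of all arrays, 551.9, and the largest share of spots well above background among livers, 62.2%. Whether slide, day or array quality had a part in the liver values was not tested beyond these fits.

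**Figure D3:**
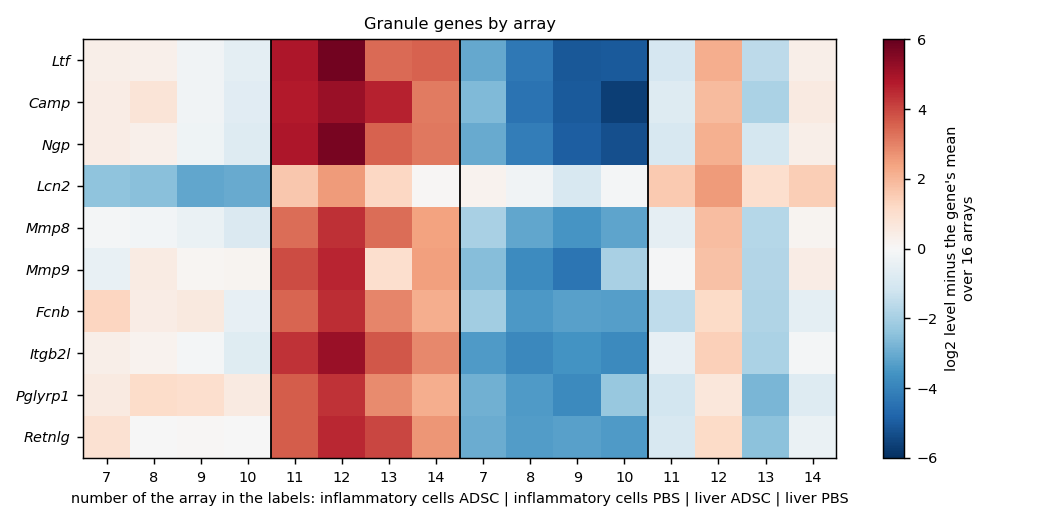
Level of each granule gene (rows) on each array (columns, by number within the groups inflammatory cells ADSC, inflammatory cells PBS, liver ADSC and liver PBS), as the log2 level minus the gene's mean over 16 arrays. PBS 12 is the highest of its group for all 10 genes in inflammatory cells and in liver, PBS 13 is the lowest PBS liver for all 10, and Lcn2 differs from the other rows in liver.

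Across arrays the members varied together. The mean level of the 10 genes was 1.01, 0.98, 0.62 and 0.24 in ADSC cells, against 4.73, 5.55, 3.95 and 3.35 in PBS cells. In liver it was -1.56, -2.52, -2.91 and -2.51 after ADSC, against 0.30, 2.56, -0.71 and 1.01 after PBS. PBS arrays were the more spread in both sample types: the SD of the mean was 0.36 in ADSC cells and 0.95 in PBS cells, and 0.57 in ADSC livers and 1.37 in PBS livers (n = 4 each). The SD was smaller after ADSC for each of the 10 genes in each sample type. In ADSC livers, though, Fcnb and Itgb2l were well above background on 0 of 4 arrays and Mmp8 and Mmp9 on 1 of 4. The liver SDs of these genes, and in part that of the mean, therefore rest on signals near background. PBS 12 was the highest of its group for 10 of 10 members in cells and in liver, and ADSC 7 for 7 of 10 in cells and 8 of 10 in liver, though nothing in the labels ties a number to an animal. Members were correlated over the 8 arrays of a sample type, each array taken as its deviation from its group's mean, as a description. The 45 pairs had correlations of 0.15 to 0.98 in cells (median 0.86) and 0.62 to 1.00 in liver (median 0.87). The highest liver value was that of Itgb2l with Retnlg, and Itgb2l was well above background on 0 of 4 ADSC and 3 of 4 PBS livers. Correlations between pairs of other genes are not given here. Mmp9 was the loosest member in cells, with a median correlation of 0.54 with the other 9.

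The difference between the ADSC effects, inflammatory cells minus liver, was tested in 1 fit of all 16 arrays. Of 10 members 0 passed, against 0.0316% of the 22139 genes tested. An unadjusted p under 0.05 was found for 1 of 10 members, Lcn2, and for 2237 of the 22139 genes, a like share. Lcn2 differed by -2.22 ± 0.62 (SE, adjusted p = 0.236), with a 95% interval of -3.54 to -0.89. Of the other members, 5 were well above background on 3 or 4 of the ADSC livers, and their difference lay between -0.91 (Retnlg) and 0.09 (Ngp). For Mmp8, Mmp9, Fcnb and Itgb2l it was -0.89, 0.34, -0.47 and -0.71, values that rest on ADSC livers mostly not well above background. At the lowest detected signal these 4 were at -1.02, -0.32, -2.11 and -2.55. The interval for Ltf ran from -2.26 to 2.06, so the fit does not show that Ltf moved alike in both sample types. The sign of the difference changed with the scaling or background correction for Ltf, Camp, Ngp and Mmp9. With array weights Lcn2 passed at -2.72 (adjusted p = 0.0221).

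The sample types themselves were then compared. After ADSC, 9 of 10 members were higher in inflammatory cells than in liver and 1, Lcn2, was lower, against 45.4% of all genes higher and 33.2% lower, 78.6% together. After PBS, 9 of 10 members were higher and 0 lower, against 44.9% of all genes higher and 31% lower, 75.9% together. Of the 9 called after ADSC, Fcnb and Itgb2l were well above background on 0 of 4 ADSC livers and Mmp8 and Mmp9 on 1 of 4, so these 4 reached the filter through the cell arrays. The medians were 3.55 after ADSC and 4.22 after PBS, where those of all genes were 0.36 and 0.35. The first lay between the values of Fcnb and Itgb2l, and was 3.02 at the lowest detected signal, 2.14 with normexp correction and 2.08 with quantile normalization added. The median after PBS was 3.57 with normexp correction and 3.59 with quantile normalization added. Without the 3 arrays rich in pancreas transcripts the same count of 9 passed in each, with medians of 3.81 and 4.24. With so many genes called, the direction alone sets the members little apart from the array. All ADSC cell arrays stood apart from all ADSC livers for 10 of 10 members (43.3% of all genes were wholly above and 32.1% wholly below). For PBS this held for 8 of 10, all but Lcn2 and Mmp9 (40.3% wholly above and 27.9% wholly below).

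Ltf averaged 2.24 ± 0.45 in cells and -2.09 ± 0.94 in liver after ADSC (SD, n = 4 each), a log2 fold change of 4.33 ± 0.72 (SE, adjusted p = 4.66e-05). After PBS it averaged 6.68 ± 1.14 in cells and 2.26 ± 1.67 in liver, a change of 4.42 ± 0.72 (SE, adjusted p = 4e-05). Camp, Ngp, Pglyrp1, Retnlg, Itgb2l and Fcnb gave 3.47 to 4.54 after ADSC and 3.97 to 4.49 after PBS. Since Fcnb and Itgb2l were not well above background on any ADSC liver, they are better given there as at least 2.97-fold and at least 3.28-fold higher in cells. As measured, the proteases had smaller differences than those genes, 2.56 for Mmp8 and 3.23 for Mmp9 after ADSC, and 3.44 and 2.89 after PBS. Mmp8 and Mmp9 were well above background on 1 of 4 ADSC livers. At the lowest detected signal the order after ADSC changed: Mmp8 and Mmp9 were at 2.42 and 2.56, Fcnb and Itgb2l at 1.57 and 1.71. With normexp background correction and quantile normalization, Mmp9, Fcnb and Itgb2l lost their calls after ADSC (1.04, 0.69 and 0.69).

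**Figure D4:**
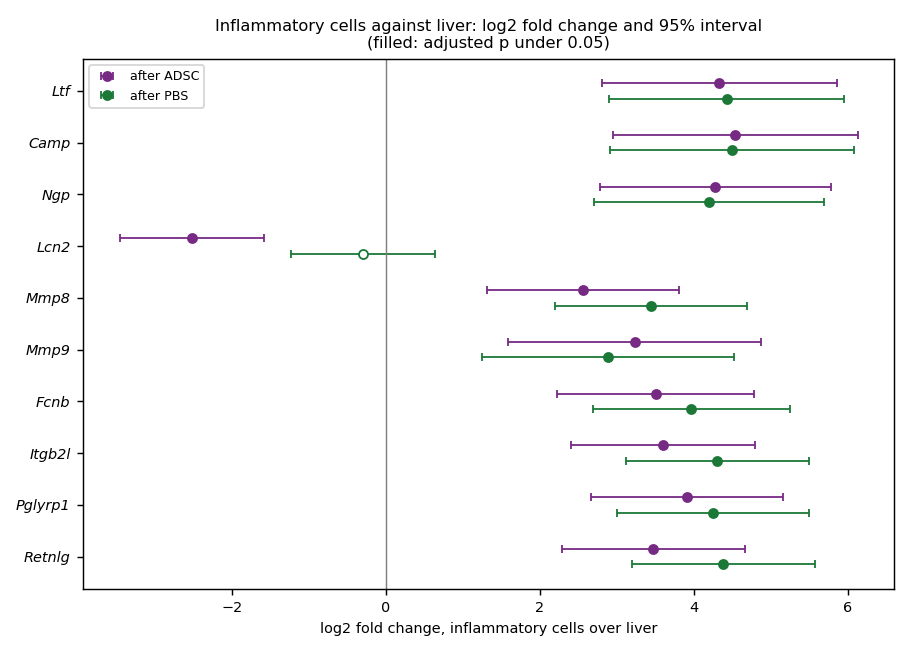
Log2 fold change of each granule gene, inflammatory cells over liver (horizontal axis), with its 95% interval, after ADSC (purple) and after PBS (green); filled points passed at an adjusted p under 0.05. Lcn2 lies at -2.52 after ADSC and -0.30 after PBS, and the other 9 genes between 2.56 and 4.54; Fcnb and Itgb2l were not well above background on any ADSC liver.

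Lcn2 was the exception among the members. It averaged 1.45 ± 0.36 in cells and 3.97 ± 0.49 in liver after ADSC (SD, n = 4 each), and was lower in cells by the log2 fold change of -2.52 ± 0.44 (SE, adjusted p = 7.79e-05). After PBS it averaged 5.59 ± 1.03 in cells and 5.89 ± 0.64 in liver, a change of -0.30 ± 0.44 (SE, adjusted p = 0.543). Its 4 groups ran in the order liver PBS, cells PBS, liver ADSC and cells ADSC, and the first pair did not differ beyond their spread. For the other 9 members inflammatory cells PBS was the highest group and liver ADSC the lowest, and the values of cells ADSC and liver PBS overlapped between them. Ltf, for example, averaged 2.24 ± 0.45 in cells ADSC and 2.26 ± 1.67 in liver PBS (SD, n = 4 each). Among the 12 hepatocyte acute phase genes, to which liver Lcn2 is related as background, 0 passed in liver after ADSC. Their estimates were all below 0, with a median of -0.53, against 0.04 over all genes. The share of all genes with an estimate below 0 is not given here. The acid glycoproteins Orm3, Orm2 and Orm1 were at -1.19, -0.84 and -0.78.

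Other neutrophil genes were set beside the members in inflammatory cells. Their lists were chosen with results of these data known, and the call background is again 1.07% lower. All 5 azurophil granule genes fell (median -4.18): the log2 fold change was -4.70 for Elane (neutrophil elastase), -4.54 for Ctsg (cathepsin G), -4.18 for Mpo (myeloperoxidase), -3.18 for Ms4a3 and -3.06 for Prtn3 (proteinase 3). Elane was well above background on 1 of 4 ADSC arrays and 4 of 4 PBS arrays, and its difference was -4.13 at the lowest detected signal. Of 9 tested genes of calprotectin and the receptors of mature neutrophils 5 fell and 0 rose (median -2.28). S100a8 and S100a9, the subunits of calprotectin, fell, with log2 fold changes of -2.81 and -1.5005, as did Trem1, Fpr2 and Fpr1, with -2.87, -2.51 and -2.28. Cxcr2, Csf3r and Cd177 did not pass, at -1.52, -1.44 and -2.57 (adjusted p = 0.106, 0.168 and 0.111). The difference in size between these lists and the members was not tested. Without the 3 arrays rich in pancreas transcripts 0 genes of any list passed (adjusted p = 0.137 at the lowest), with medians of -3.89 for 4 azurophil genes and -2.04 for 9 calprotectin and receptor genes.

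**Figure D5:**
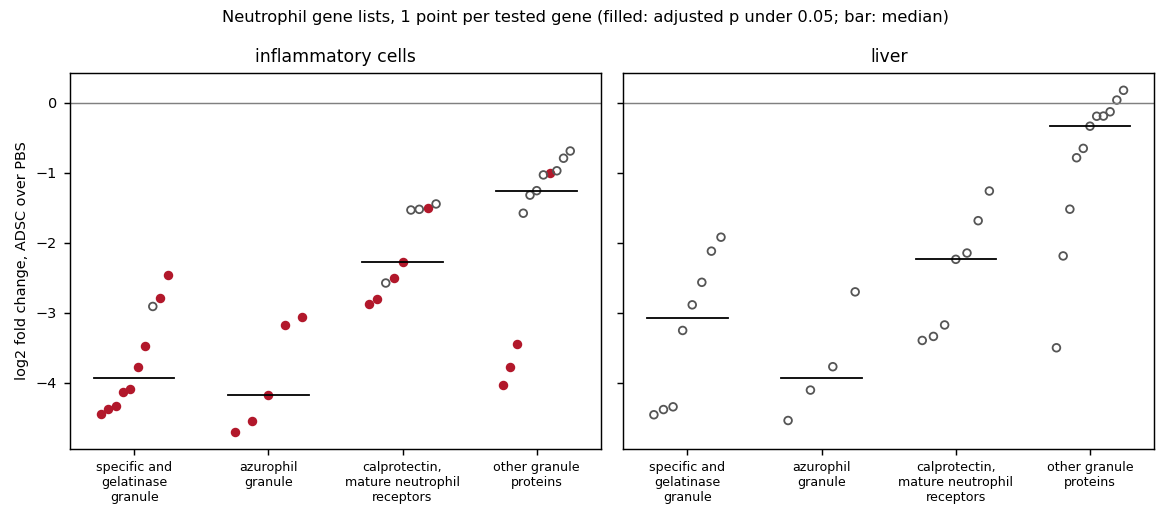
Log2 fold change, ADSC over PBS (vertical axis), of each tested gene in 4 neutrophil lists (horizontal axis), in inflammatory cells (left) and liver (right); filled points passed at an adjusted p under 0.05 and bars are medians. In inflammatory cells the medians are -3.93 for the specific and gelatinase granule genes, -4.18 for azurophil granule genes, -2.28 for calprotectin and mature receptors and -1.25 for other granule proteins; in liver 0 genes passed.

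Of 11 tested genes of other granule proteins 4 fell and 0 rose: the log2 fold change was -4.03 for Wfdc21, -3.78 for Stfa2l1 (a stefin, a cysteine protease inhibitor), -3.45 for Chil3 (a chitinase-like protein) and -1.005 for Cyba (a subunit of the phagocyte oxidase). Lyz2, lysozyme, was at -0.79 (adjusted p = 0.163). Of 9 tested transcription factors and genes of the G-CSF axis 1 fell, Cebpb, by 1.27. Cebpd was at -1.23 (adjusted p = 0.08), Cebpa at -0.57, Spi1, which encodes PU.1, at -0.48 and Gfi1 at 0.14, and Cebpe was not analysed here. Of 15 tested binding partners and inhibitors 2 fell, the receptors Fpr2 and Trem1 already named. Without the 3 arrays rich in pancreas transcripts the medians were -1.10 for other granule proteins, -0.58 for regulators and -0.31 for 14 partners. Timp1, an inhibitor of gelatinase B, was at 0.16 and Slc22a17, described as a lipocalin 2 receptor, at 0.50.

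In liver 0 genes of any of these lists passed. The medians were -3.94 for 4 tested azurophil genes, -2.24 for 7 tested calprotectin and receptor genes, -0.33 for 11 other granule proteins, -0.29 for 8 regulators and -0.10 for 15 partners. Prtn3, Ms4a3 and the receptor Trem1 were well above background on 0 of 4 ADSC livers and 4 of 4 PBS livers, and were at least 4.75-fold, 5.32-fold and 4.15-fold lower. At the lowest detected signal the medians were -3.05 for azurophil genes and -2.15 for calprotectin and receptor genes. S100a8 and S100a9 were at -3.40 and -3.18 in liver, and Mpo at -4.54. Wfdc21 was at -0.65 there and Lyz2 at 0.18.

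Genes outside the members were ranked by their likeness to the mean profile of the members over 16 arrays, among 13203 genes, as a description with no test. The arrays include the group differences, so the nearest genes share those. Nearest were Ctsg (r = 0.99), Ifitm6 (0.98), Ms4a3 (0.98), Prtn3 (0.98) and Stfa2l1 (0.98), while the member Lcn2 had 0.40. With each array taken as its deviation from its group's mean, those near the top were Tmem40 (0.95), Ctsg (0.95), Gng13 (0.95) and Slc2a3 (0.93). Lcn2 then had 0.88 and Mmp9 0.78, so within groups Lcn2 followed the other members more closely than over all arrays.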

How the data were processed

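RNA was measured on 16 one-colour arrays, 1 per sample. The deposited scanner files hold the processed signal, an intensity that Agilent Feature Extraction 10.5.1.1 corrected for background within each array, per the file headers, with no normalization between arrays. Raw spot and local background intensities, deposited too per the file headers, were used for 1 alternative. Detection and outlier marks were read as deposited. The deposited value table equals the processed signal (largest relative difference 0), so its scale is linear and uncentred.

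Of 43379 non-control spots per array, 71 to 124 outliers were left out and the spots of a probe averaged. Log2 signals were taken relative to the 75th percentile of the array's non-control probes. RefSeq accessions named 23374 of 41174 probes, and the other 17800 kept the file's name. The probe with the highest mean over 16 arrays stood for a gene, and testing needed detection on 4 or more arrays of a fit. The limma package (3.58.1, under R 4.3.3) gave moderated tests by lmFit and eBayes, with Benjamini-Hochberg adjustment over all genes tested and calls under 0.05. Within each sample type, 8 arrays entered the treatment comparison, and the other contrasts came from 1 fit of 4 group means over 16 arrays. A bound, written as at least, divides the mean of the brighter group by a mean for the dimmer one in which no array counts below its lowest detected signal. The number of arrays limits the precision. The fit was tested on simulated data.

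The members and lists were chosen with earlier results of these data known. The 10 members are named in every comparison, list genes with their values, and the 5 other genes most like the members, of which 1 is not reported here. The alternatives were background correction, normalization, scaling, the filter on dim probes, the probe of a gene, array weights, slide, scan day, arrays rich in pancreas transcripts, the number as a block and leaving out each array. Added after seeing the data were the lowest detected signal for arrays not well above background, and the lists without the pancreas-rich arrays. Of the list symbols, 12 were not analysed here.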

Additional observations from a re-analysis of the deposited data

Results flagged for a closer look

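In 2 of 40 groups of 4 arrays checked, 1 per member and group, a single array stood apart from the rest by Dixon's criterion at 95%. Chance flags about 1 in 20 such groups. Fcnb, ficolin B, was at -4.56 on liver ADSC 7, the highest of its group, where it was not well above background. Retnlg, resistin-like gamma, was at 3.45 on inflammatory cells ADSC 7, the highest of its group.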

How the results depend on the processing

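Of 10 members in inflammatory cells, 9 passed as lower after ADSC, 7 to 10 when 1 array was left out and 9 with scan day as a fixed term. With slide as a fixed term, or without the 3 arrays rich in pancreas transcripts, 0 passed, and the cause was not tested. All 10 estimates were below 0 in each of these fits. Over all genes the 243 calls became 68 to 507 without 1 array, 109 with no filter on dim probes, 161 with scan day as a term, 818 with slide as a random block and 4393 with array weights. With no filter on dim probes 7 members passed, Fcnb and Pglyrp1 being lost. In liver 0 members passed, 6 with array weights and 0 without any 1 array. For the difference of the effects 0 passed, 1 with array weights, and 0 without any 1 array. Over all genes the 7 calls for that difference became 954 with array weights, 64 where every array had to detect a gene, 32 with normexp correction, 65 with quantile normalization added and 0 with slide or scan day as a fixed term. In liver 34 genes passed with array weights. The 9 members higher in inflammatory cells became 4 of 5 tested, after ADSC and after PBS, where a gene had to be well above background on every array, since fewer genes were tested, and 9 without any 1 array.

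The difference of the ADSC effects, never passing for these genes, changed sign as follows, and the cause was not tested. It was -1.04, -1.07 and -1.02 for Camp, Ngp and Mmp9 with normexp correction, and -0.90, -1.07 and -1.37 with quantile normalization added. Ltf was at 0.040 with the percentile over detected probes and 0.039 with the mean of its probes. With array weights Ngp was at -0.19 and Mmp9 at -0.17. Camp was at -0.077 with slide as a random block, and Camp and Ngp at -0.77 and -0.014 with slide fixed and at -1.25 and -0.45 with scan day fixed. Mmp9 was at -0.21 without the pancreas-rich arrays and at -0.32 with arrays not well above background at the lowest detected signal, a setting added after seeing the data. Without 1 array the ranges were -0.83 to 0.43 for Ltf, -0.61 to 0.65 for Camp, -0.59 to 0.55 for Ngp, -0.31 to 0.96 for Mmp9 and -0.90 to 0.25 for Pglyrp1. For Lcn2 in cells against liver after PBS the range was -0.70 to 0.14.

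In inflammatory cells the all-gene median was 0.13 when arrays were scaled on detected probes alone and 0.03 as reported. For inflammatory cells against liver it was 0.76 after ADSC and 0.62 after PBS on that scaling, 0.12 and 0.11 with quantile normalization, and 0.36 and 0.35 as reported. With the number as a replicate block, 9 members passed as higher in inflammatory cells after ADSC and 9 after PBS, and 0 for the difference. Same-numbered liver and cell arrays correlated at -0.06 to 0.17 in their deviations, and 3 of 8 matched best with their own number, so the numbers were not taken to pair them.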
